A study of Mus musculus with 10 samples.

Results

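The cells compared here were the primordial germ cell-like cells (PGCLC) of day 2 (d2) and day 4 (d4) embryoid bodies (EB). They were the 135 barcodes that the study lists as PGCLC, of which 91 came from the d2 EB library and 44 from the d4 EB library, out of 2782 cells in the whole table of the mouse embryonic stem cell (ESC) line E14Tg2a. All cells were wild type. ESC grown in 2i medium were turned into epiblast-like cells (EpiLC), and d2 EpiLC were aggregated into EB in serum-replacement medium with BMP4, SCF, LIF and EGF. The 2 groups shared the line, the medium and the cytokines and differed in the days spent as EB. E14Tg2a is a single established line, and each day was 1 droplet-based single-cell RNA library, so the effect of the day cannot be told apart from that of the library, and the days were compared without a test.

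Primordial germ cells are the precursors of eggs and sperm. In the mouse embryo they arise from epiblast cells that receive BMP and WNT signals at the posterior end, next to the forming mesoderm, and they pass through a short phase in which mesodermal genes such as *T* are active. The transcription factors *Prdm1*, *Prdm14* and *Tfap2c* then shut the somatic program, bring back pluripotency genes and start the epigenetic reprogramming of the germline. The comparison of d2 with d4 PGCLC follows the listed cells from the first EB stage sampled to the second.

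Expression was measured as unique molecular identifiers (UMIs), which count captured RNA molecules. The d2 PGCLC held 2933129 UMIs in all, with a median of 29664 per cell (lowest 15891, highest 68325), and the d4 PGCLC held 1054626, with a median of 24558 (lowest 11676, highest 39864). The remaining 446 cells of the d2 EB and 324 cells of the d4 EB served as the background of the same libraries, with medians of 24045.5 and 21487.5 UMIs. Levels are the summed UMIs of a group in counts per 1000000 (CPM), each with an exact Poisson interval of 95%, and folds with exact conditional 95% intervals. These intervals cover counting error only, not the spread between cultures. No barcode was shared between the d2 and d4 PGCLC, and 1 was shared between the d2 and d4 EB libraries.

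The label of the cells was checked against *Prdm1*, *Dppa3*, *Tfap2c* and *Nanos3*. At least 2 of these 4 markers had a UMI in 70 of 91 d2 PGCLC (76.9%) and in 29 of 44 d4 PGCLC (65.9%), against 4.48% of the remaining d2 EB cells and 3.70% of the remaining d4 EB cells. The listed cells were chosen by their markers, so these values only describe them. PGCLC made up 16.9% of the cells of the d2 EB (exact binomial interval 13.9 to 20.4) and 12.0% of those of the d4 EB (8.82 to 15.7).

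A gene was called higher or lower when log2((d4 CPM + 1) / (d2 CPM + 1)) was at least 1 in size, that is, when it changed at least 2-fold. Of 10258 genes with at least 10 UMIs over both groups, 613 were higher in d4 PGCLC (5.98%) and 1282 were lower (12.5%). The median log2 ratio of all these genes was -0.17, and that of genes with at least 100 UMIs was -0.20. When the latter was set to 0, 899 genes were higher and 932 lower, and with totals that left out hemoglobin, mitochondrial and ribosomal protein genes 828 were higher and 1200 lower. The summed level of the 80 cytosolic ribosomal protein genes tested was 396953 CPM in d2 and 450600 CPM in d4 PGCLC. The log2 ratios below are on the scale without this centering and can be read against the median of -0.17. The counts of higher and lower genes of each list in PGCLC can be read against 5.98% and 12.5% of all genes.

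**Figure D1:**
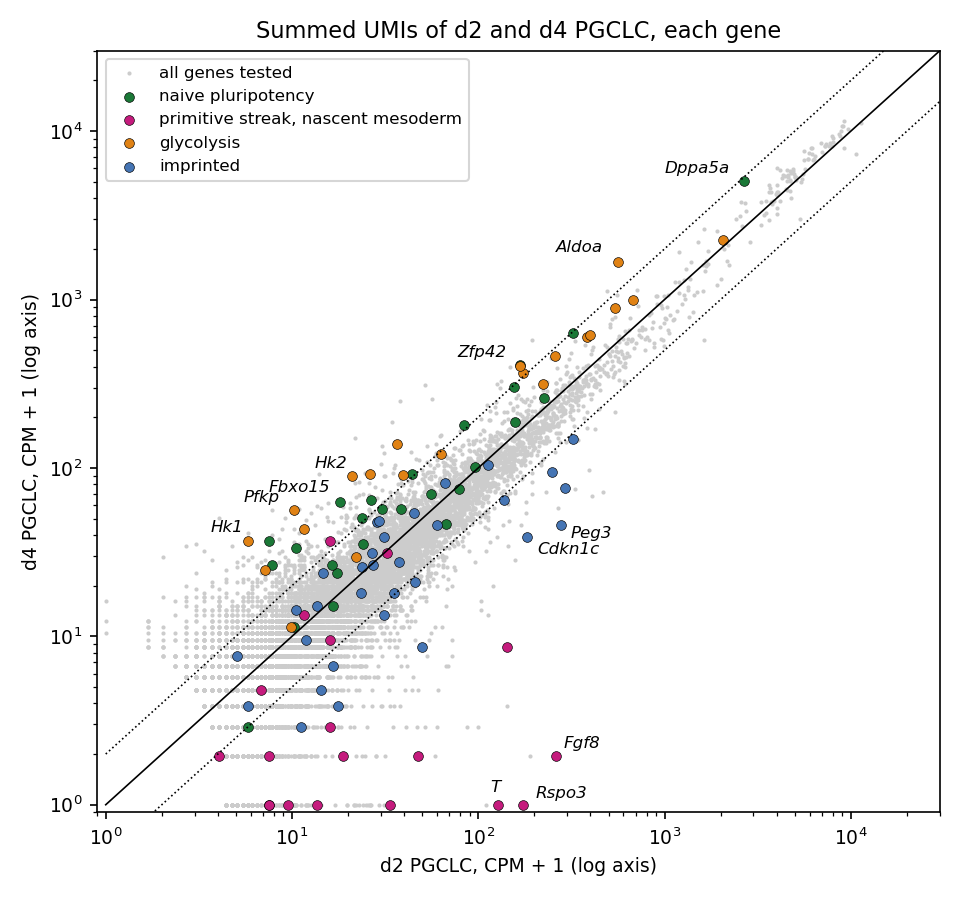
Each point is a gene tested, with its level in d2 PGCLC (x axis, CPM + 1, log axis) and in d4 PGCLC (y axis, CPM + 1, log axis). The solid line marks equal levels and the dotted lines 2-fold differences, and colors mark 4 gene lists. Primitive streak genes such as *T*, *Fgf8* and *Rspo3* lie at the bottom edge, and *Hk1*, *Hk2*, *Pfkp* and *Aldoa* of glycolysis lie above the upper dotted line.

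Genes of the primitive streak and nascent mesoderm were among those with the largest differences. *T*, the Brachyury transcription factor of the streak (GRCm38, chromosome 17, 8434423 to 8442496), stood at 126.8 CPM (interval 114 to 140) in d2 PGCLC and had 0 UMIs in d4 PGCLC, at least 44.6-fold lower when the limit of 3 UMIs over the d4 group is used. It had a UMI in 61 of 91 d2 cells and in 0 of 44 d4 cells, where the limit of 3 counts gives a share of 6.82% of cells with a UMI and the exact binomial interval reaches 8.04%. Folds called "at least" all use the limit of 3 UMIs, and the conditional intervals start lower, at 36.1 for *T*. *Fgf8*, a growth factor of the streak (chromosome 19, 45736798 to 45742915), went from 259 CPM to 0.948 CPM with a single UMI left, a ratio of 273 with an interval from 48.9 to 10807. *Rspo3*, a secreted enhancer of WNT signaling (chromosome 10, 29452416 to 29535867), stood at 173 CPM and then had 0 UMIs, at least 60.9-fold lower. The d2 and d4 PGCLC thus differed in the transcripts of *T*, *Fgf8* and *Rspo3*, which were nearly absent from the second group.

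Of the 28 genes of the streak and mesoderm list, 19 were tested, and 14 were lower and 1 was higher in d4 PGCLC, beside 12.5% and 5.98% over all genes. Their median log2 ratio was -2.90, or -1.94 with genes at 0 UMIs set to their limit. Of the 19, 7 had 0 UMIs in d4 PGCLC and so passed the filter of 10 UMIs only through d2 PGCLC. *Mesp1*, a factor of nascent mesoderm, went from 32.4 CPM to 0 UMIs, at least 11.4-fold lower. *Cdx2*, a caudal homeobox factor of the posterior embryo, went from 141 CPM to 7.59 CPM, 18.6-fold lower (9.36 to 43.4). The exception was *Fgf4*, which is also a growth factor of pluripotent cells, at 15.0 CPM and 36.0 CPM, 2.40-fold higher (1.51 to 3.79). In the remaining EB cells 15 of the same 19 genes were lower at d4, with a median of -2.38, so the loss of streak transcripts was seen in both parts of the EB. *Rspo3* differed between them, since the remaining cells went from 134 CPM to 60.7 CPM.

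Genes downstream of BMP, the signal added to the medium, were lower as well. Of 20 tested genes of the BMP list, 10 were lower and 0 higher, with a median log2 ratio of -1.09 against -0.50 in the remaining EB cells. *Msx1*, a homeobox factor, went from 141 CPM to 2.84 CPM on 3 UMIs, a ratio of 49.5 (16.8 to 241). *Hand1*, a factor of extraembryonic mesoderm and trophoblast, went from 86.3 CPM to 1.90 CPM on 2 UMIs, a ratio of 45.5 (12.5 to 378). The inhibitors of differentiation *Id1* and *Id3* stayed detectable, *Id1* at 422 and 169 CPM and *Id3* at 543 and 213 CPM, that is, 2.50-fold (2.14 to 2.95) and 2.54-fold (2.21 to 2.94) lower. *Smad7* and *Bmpr1a*, a feedback inhibitor and a receptor, did not pass 2-fold, with log2 ratios of 0.11 for both.

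All 6 tested *Hox* genes of the 39 in the table were lower. Of these 6, 4 had 0 UMIs in d4 PGCLC. They passed the filter of 10 UMIs only through d2 PGCLC, so their fall was fixed by that filter. Over all genes, 197 of the 1282 lower ones had 0 UMIs in d4 PGCLC. Of all 39 *Hox* genes, 32 had 0 UMIs in d4 PGCLC and 11 in d2 PGCLC, which held more UMIs, and 9 had 0 in both. Their sum was 102 CPM in d2 and 10.4 CPM in d4 PGCLC, 9.81-fold lower (5.402 to 19.9), and 488 and 440 CPM in the remaining EB cells, where 5 of the 6 were lower. *Hoxd9* had the most UMIs of them and went from 33.8 CPM to 1.90 CPM, while in the remaining EB cells it went from 122 CPM to 20.1 CPM. Of 14 tested genes of retinoic acid and WNT signaling, 6 were lower and 0 higher, and 3 of the 14 had 0 UMIs in d4 PGCLC. In the remaining EB cells 5 of the same 14 were lower and 0 higher. The median log2 ratio was -0.97 in PGCLC and -0.52 in the remaining cells. *Axin2*, a common readout of WNT signaling, went from 39.2 CPM to 6.64 CPM, 5.91-fold lower (2.78 to 15.0).

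Transcripts of neighboring cell types can reach any droplet as free RNA, so their markers were read in the same groups. The 15 markers of extraembryonic mesoderm summed to 126 CPM in d2 and 37.9 CPM in d4 PGCLC against 1273 and 1432 CPM in the remaining cells. *Hand1* in d2 PGCLC was at 9.16% of its level in the remaining d2 cells, whereas *T* was at 265%, *Fgf8* at 260% and *Rspo3* at 130%. The level of *T* and *Fgf8* in d2 PGCLC was thus above that of the cells around them. For *Hand1*, *Msx1* and the *Hox* genes the part of free RNA was not tested.

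Single cells showed how far the groups overlapped. Streak and mesoderm genes took 0.00235% of the UMIs in the lowest d2 PGCLC, 0.0849% in the median cell and 0.365% in the highest, and in d4 PGCLC 0%, 0.00606% and 0.0542%. None of the 44 d4 cells reached the d2 median, while 3 of 91 d2 cells lay below the d4 median. Naive pluripotency genes ran the other way, with a lowest, median and highest share of 0.0301%, 0.348% and 1.13% in d2 and 0.306%, 0.714% and 2.15% in d4 PGCLC. Here 43 of 44 d4 cells lay above the d2 median and 20 of 91 d2 cells above the d4 median. The d2 group was thus wide and included cells with the naive share of d4 cells.

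**Figure D2:**
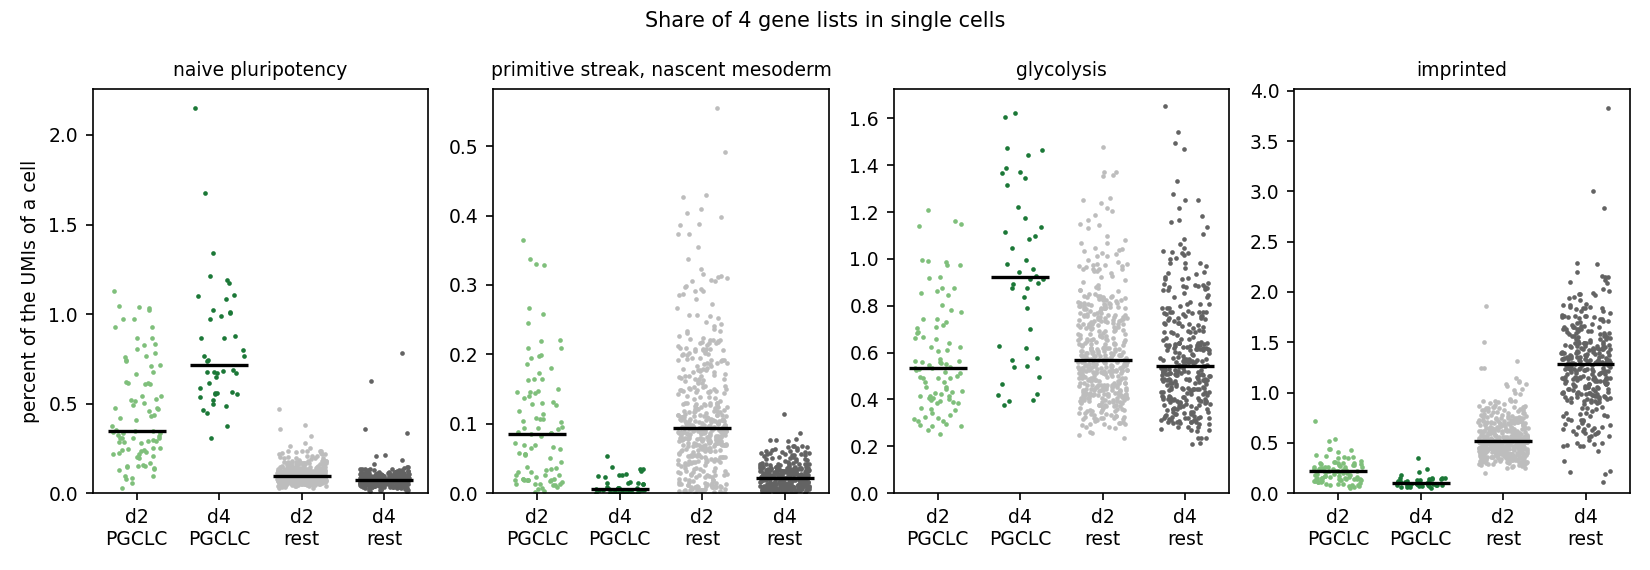
Each point is a cell, and the y axis gives the percent of its UMIs that fall on the genes of a list, in d2 and d4 PGCLC and in the remaining cells of the same EB. Black bars are medians, and each panel has its own y axis starting at 0. Naive genes were at a median of 0.348% in d2 and 0.714% in d4 PGCLC, and imprinted genes at 0.216% and 0.104%.

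Within the d2 library the 2 programs were opposed from cell to cell. Across the 91 d2 PGCLC the share of streak genes and the share of naive genes had a Spearman rho of -0.56, and -0.53 with every cell thinned to 14660 UMIs. These cells share 1 library, and rho of either share with the UMIs per cell was -0.13 and -0.14. The share of naive genes had a rho of -0.57 with imprinted genes, -0.45 with BMP genes and 0.43 with glycolysis genes. In the 44 d4 PGCLC the corresponding values were -0.02 for streak genes, -0.03 for imprinted genes, 0.12 for BMP genes and 0.10 for glycolysis genes. Not all lists that differed between the days were as strongly related among the d2 cells, since streak and glycolysis genes had a rho of -0.23. *Dppa5a* supplied 61.3% of the UMIs of the naive list in d2 and 64.0% in d4 PGCLC. Without it the naive share had a median of 0.134% in d2 and 0.277% in d4 PGCLC, 42 of 44 d4 cells lay above the d2 median, and the rho with streak genes in d2 cells was -0.67. A UMI of *T* was found in 61 of all 91 d2 PGCLC, in 47 of the 62 with a UMI of *Prdm1*, in 32 of the 50 with *Dppa3* and in 45 of the 71 with *Nanog*.

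The genes of PGC specification moved in both directions. Of 18 tested genes of this list, 2 were higher and 4 lower, with a median log2 ratio of -0.01. *Prdm1*, the repressor of the somatic program (chromosome 10, 44437177 to 44528501), stood at 48.4 CPM (40.8 to 57.1) in d2 and 21.8 CPM (13.8 to 32.7) in d4 PGCLC, 2.22-fold lower (1.42 to 3.62). *Dppa3*, the maternal factor also called Stella (chromosome 6, 122626410 to 122630272), stood at 103 CPM (91.4 to 115) and 193 CPM (168 to 222), a ratio of 1.88 (1.57 to 2.26) that did not reach 2-fold. *Tfap2c* (chromosome 2, 172549593 to 172558622) was at 90.0 and 87.2 CPM, a ratio of 0.969 (0.756 to 1.23). *Nanos3*, an RNA-binding protein of germ cell survival (chromosome 8, 84173731 to 84185217), was at 22.5 and 20.9 CPM, a ratio of 0.927 (0.545 to 1.52). Of the 4 markers, only *Prdm1* passed 2-fold, and it no longer did with a pseudocount of 5 CPM, with the median log2 ratio of abundant genes set to 0 or with cells thinned to a common depth.

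The other lower genes were *Dnd1*, an RNA-binding protein that protects germ cells, at 169 and 44.6 CPM, 3.79-fold lower (2.81 to 5.23), *Lin28a*, an inhibitor of let-7 microRNAs, at 111 and 42.7 CPM, and *Ifitm3*, the surface protein also called Fragilis, at 1618 and 575 CPM. *Ifitm3* remained in 43 of 44 d4 cells. The higher genes were *Elavl2*, an RNA-binding protein, at 20.8 and 50.3 CPM, and *Tcl1*, a co-activator of AKT, at 10.2 and 29.4 CPM. *Prdm14*, named after its values were seen, was at 22.5 and 38.9 CPM, a ratio of 1.73 (1.14 to 2.59). *Pou5f1*, the OCT4 factor shared by germ cells and pluripotent cells, was level at 824 and 808 CPM in PGCLC while the remaining EB cells went from 256 to 15.0 CPM.

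**Figure D3:**
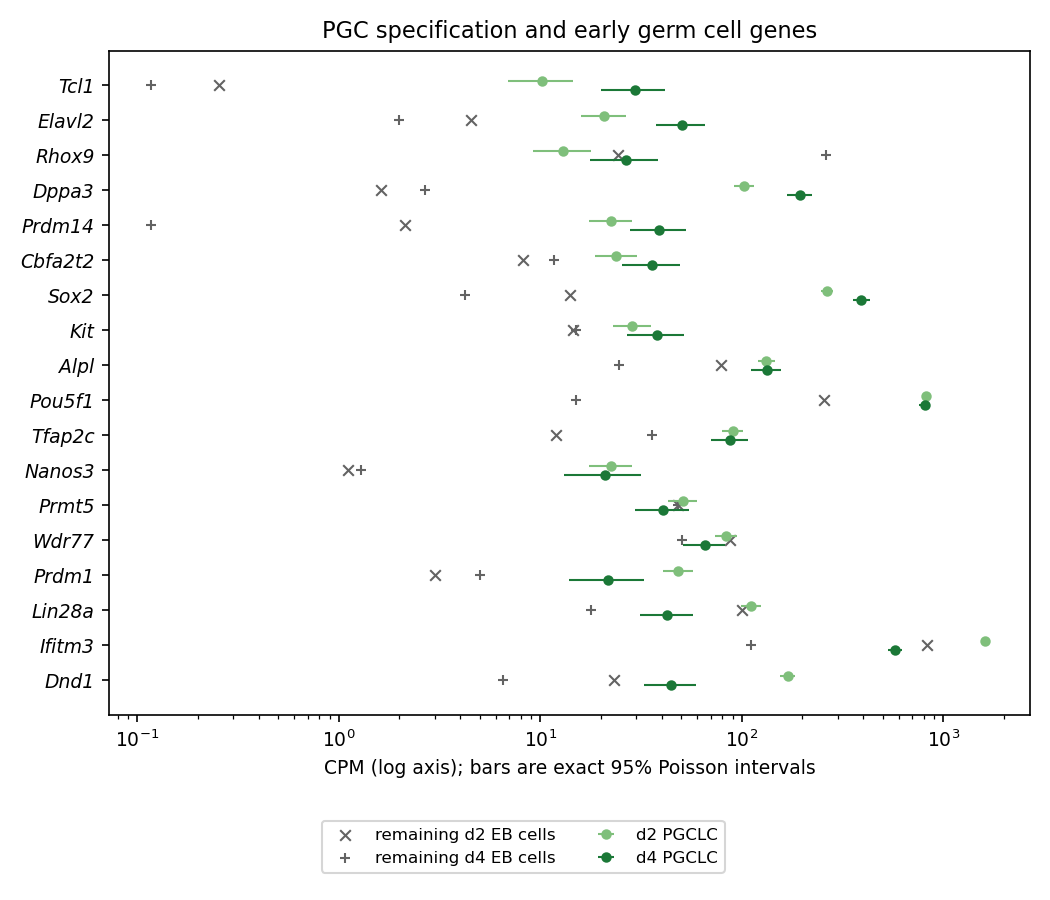
The x axis gives the level in CPM (log axis) of 18 genes of PGC specification, ordered by their log2 ratio of d4 over d2, in d2 and d4 PGCLC (circles with exact 95% Poisson intervals) and in the remaining cells of the d2 EB (x) and d4 EB (+). *Dnd1*, *Ifitm3*, *Lin28a* and *Prdm1* at the bottom were at least 2-fold lower and *Elavl2* and *Tcl1* at the top at least 2-fold higher in d4 PGCLC.

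Naive pluripotency genes, which mark 2i ESC and the preimplantation epiblast, were higher in d4 PGCLC. Of 26 tested, 9 were higher and 0 lower, 22 had a ratio above 1, and the median log2 ratio was 0.81 against -0.26 in the remaining EB cells. *Zfp42*, also called Rex1, stood at 166 CPM (151 to 181) and 405 CPM (367 to 445), 2.44-fold higher (2.14 to 2.79). *Fbxo15*, a target of OCT4, stood at 17.0 and 61.6 CPM, 3.62-fold higher (2.46 to 5.34). *Socs3*, the feedback inhibitor of the LIF pathway, stood at 6.48 and 36.0 CPM, 5.56-fold higher (3.13 to 10.2). Levels in 2i ESC were 464 CPM for *Zfp42*, 48.6 CPM for *Fbxo15* and 35.4 CPM for *Socs3*, close to those of d4 PGCLC. *Nanog* and *Esrrb*, named after their values were seen, were 2.17-fold (1.79 to 2.64) and 2.16-fold (1.47 to 3.15) higher. Of the 26 naive genes, 17 did not pass 2-fold, among them *Klf5* at 77.4 and 74.0 CPM and *Tbx3* at 65.8 and 45.5 CPM. The summed level of the list was 4347 CPM in d2 PGCLC, 7857 CPM in d4 PGCLC and 8530 CPM in 2i ESC. Without *Dppa5a*, which held most of these UMIs and did not pass 2-fold, the sums were 1680 CPM, 2832 CPM and 3862 CPM, and the median log2 ratio was 0.70.

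Core pluripotency genes showed no common direction, with 2 of 14 higher (14.3%) and 2 lower (14.3%), beside 5.98% and 12.5% of all genes. *Tdgf1*, the NODAL co-receptor Cripto, was 4.62-fold higher (3.79 to 5.65) at 55.2 and 255 CPM, and *Dppa4* was higher at 43.3 and 91.0 CPM. *Sox2* was at 265 and 392 CPM and *Utf1* at 245 and 448 CPM, with ratios of 1.48 (1.31 to 1.67) and 1.83 (1.63 to 2.06). Of 18 tested genes of the formative and primed epiblast, 7 were lower and 1 higher. *Sox3*, a SOX factor of the epiblast and neural plate, went from 23.2 CPM to 0 UMIs, at least 8.15-fold lower by the limit of 3 UMIs, with the conditional interval starting at 6.45. *Krt8*, a keratin of simple epithelia, went from 70.9 to 8.53 CPM, with d2 PGCLC at 10.6% of the level in the remaining cells. *Dnmt3b*, the methyltransferase, was low in both groups at 40.6 and 27.5 CPM.

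The study also defined gene sets of its pluripotent stages, and they moved apart between the days. Of 434 tested ESC genes, 139 were higher (32.0%) and 15 lower (3.46%) in d4 PGCLC, with a median log2 ratio of 0.58. Of 469 tested genes of epiblast stem cells (EpiSC), the later epiblast state, 17 were higher (3.62%) and 184 lower (39.2%), with a median of -0.69. EpiLC genes were spread on both sides, with 35 of 328 higher and 63 lower and a median of -0.08. In single cells ESC genes took a median of 0.520% of the UMIs in d2 and 0.976% in d4 PGCLC, and EpiSC genes 0.907% and 0.475%. None of the 44 d4 cells reached the d2 median for EpiSC genes.

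The genes were also set against the contrast of 2i ESC over d2 EpiLC, which holds no EB cells. The study chose its ESC genes by comparing 2i ESC with d2 EpiLC and EpiSC. This contrast is therefore not independent of those gene sets. Of the 600 genes higher in d4 PGCLC that were measured in both contrasts, 166 (27.7%) were at least 2-fold higher in 2i ESC than in d2 EpiLC, beside 5.63% of all 10118 genes, and 67 (11.2%) were lower. Of the 1189 genes lower in d4 PGCLC, 409 (34.4%) were lower in 2i ESC, beside 13.05% of all genes, and 39 (3.28%) were higher. In the other direction, 29.1% of the 570 genes higher in 2i ESC were higher in d4 PGCLC and 6.84% were lower.

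Glycolysis was the list with the largest share of higher genes among those with more than 4 members tested. Of 21 tested glycolytic enzymes and glucose or lactate transporters, 11 were higher and 0 lower, all 21 had a ratio above 1, and the median log2 ratio was 1.08 against 0.06 in the remaining EB cells. The hexokinases *Hk1* (chromosome 10, 62268855 to 62379908) and *Hk2* (chromosome 6, 82725025 to 82774454), which trap glucose in the cell, stood at 4.77 and 36.0 CPM and at 20.1 and 88.2 CPM, 7.55-fold (4.00 to 15.1) and 4.38-fold (3.13 to 6.18) higher. *Pfkp*, the platelet-type phosphofructokinase, stood at 9.21 and 55.0 CPM, 5.97-fold higher (3.72 to 9.81). *Aldoa*, an aldolase with many UMIs in both groups, stood at 560.5 and 1660 CPM, 2.96-fold higher (2.77 to 3.17). The lactate exporter *Slc16a3* was 3.61-fold higher (2.64 to 4.95). The abundant enzymes *Gapdh*, *Pkm* and *Ldha* did not pass 2-fold, with log2 ratios of 0.13, 0.57 and 0.73.

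Per cell, glycolysis genes took 0.252%, 0.532% and 1.21% of the UMIs in the lowest, median and highest d2 PGCLC and 0.378%, 0.922% and 1.62% in d4 PGCLC. The remaining cells had medians of 0.569% and 0.543%. Of 44 d4 PGCLC, 37 lay above the d2 median and 11 above the highest d2 cell, while 7 lay below the d2 median.

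Over all genes with at least 50 UMIs, 3.05% were higher and 7.95% lower, and the 12 largest rises included *Hk1* and *Pfkp* beside 10 genes outside the glycolysis list. *Bnip3*, a mitophagy receptor (chromosome 7, 138890836 to 138909519), stood at 36.8 and 247 CPM, 6.72-fold higher (5.35 to 8.49), and had a UMI in 54 of 91 d2 cells and 41 of 44 d4 cells. *Ndufa4l2*, a subunit-like protein of the respiratory chain, stood at 6.82 and 55.0 CPM, 8.07-fold higher (4.78 to 14.2). *P4ha1*, a collagen prolyl hydroxylase, stood at 9.21 and 53.1 CPM, 5.77-fold higher (3.58 to 9.50). In the remaining EB cells *P4ha1* was higher too, at 9.13 and 42.0 CPM, whereas *Ndufa4l2* was level at 29.5 and 29.0 CPM and *Bnip3* at 25.3 and 45.3 CPM did not pass 2-fold.

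The remaining large rises had other roles. *Ier3*, an early response gene, stood at 3.07 and 49.3 CPM, 16.1-fold higher (7.85 to 37.1), and was also higher in the remaining cells. *Ooep*, a maternal-effect gene of the oocyte, stood at 20.8 and 150 CPM, 7.20-fold higher (5.33 to 9.85), and was near its 124 CPM in 2i ESC. *Igfbp2*, a binding protein of insulin-like growth factors, and *Fabp3*, a fatty acid-binding protein, were 6.09-fold (4.998 to 7.44) and 5.59-fold (4.37 to 7.20) higher. *Calcoco2*, an autophagy receptor, went from 8.18 to 49.3 CPM and *Aard* from 12.96 to 91.03 CPM. *Atrn* went from 4.77 to 39.8 CPM, but 73.8% of its d4 UMIs came from 1 cell.

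The promoters of the glycolysis genes were read on both strands for the letters ACGTG, the core to which hypoxia-inducible factors bind. Promoters of RefSeq (GRCm38.p6, 250 bases before to 50 bases after the annotated start) were found for 20 of the 21 tested genes, and 13 of them (65.0%) held ACGTG, beside 31.1% of the 8122 matched genes among all genes tested and 21.8% of all 27025 genes with a promoter in that table. Among the 11 higher genes it was 7 (63.6%), so the higher genes did not hold it more often than the list. The letters CACGTG, an E-box that contains ACGTG, were in 3 of the 20 (15.0%), beside 12.7% of the matched genes tested. A gene was counted when any of its annotated promoters held the letters. Genes with more promoters have more chances of a match, and the number of promoters per gene was not matched. A match of these letters is a description and not a binding site.

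A promoter of *Hk1* (chr10:62340372-62340671, minus strand) and of *Hk2* (chr6:82774405-82774704, minus strand) is shown since these were the 2 glycolysis genes with ACGTG and the largest rises. Only annotated promoters that held the letters were taken. That of *Hk1* lies at a start inside the gene interval given above, and which start was used in these cells was not tested. Capitals mark ACGTG or, on the other strand, CACGT.
Hk1: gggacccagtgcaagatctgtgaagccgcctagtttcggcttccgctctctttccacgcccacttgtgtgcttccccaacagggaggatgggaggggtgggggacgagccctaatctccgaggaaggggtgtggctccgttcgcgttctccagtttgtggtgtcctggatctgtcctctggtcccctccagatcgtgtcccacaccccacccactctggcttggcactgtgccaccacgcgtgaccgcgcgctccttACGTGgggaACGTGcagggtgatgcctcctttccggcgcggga
Hk2: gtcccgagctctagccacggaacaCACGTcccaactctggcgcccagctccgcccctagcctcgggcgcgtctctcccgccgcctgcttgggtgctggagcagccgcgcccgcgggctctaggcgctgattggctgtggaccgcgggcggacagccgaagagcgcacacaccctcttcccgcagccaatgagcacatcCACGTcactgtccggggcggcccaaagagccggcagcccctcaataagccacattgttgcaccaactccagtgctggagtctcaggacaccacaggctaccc

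Among the falls named by their size, in CPM or in the share of cells, were *Psmb8*, *B2m*, *Rtp4* and *Parp9*. *Psmb8*, a catalytic subunit of the immunoproteasome (chromosome 17, 34197721 to 34201454), stood at 188 CPM (173 to 204) in d2 PGCLC and had 1 UMI in d4 PGCLC, a ratio of 198 (35.4 to 7839). *B2m*, the light chain of MHC class I, went from 111 to 12.3 CPM, 9.02-fold lower (5.20 to 17.1). *Rtp4* and *Parp9*, both induced by interferon, went from 30.002 and 28.3 CPM to 0 UMIs, at least 10.5-fold and 9.95-fold lower. *Dtx3l*, the partner of *Parp9* that lies next to it on chromosome 16, went from 27.6 to 4.74 CPM. In the remaining EB cells *Psmb8* also went from 231 to 2.11 CPM, and *B2m* from 127 to 80.2 CPM.

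Genes of later germ cells, many of them silenced by DNA methylation in somatic cells, were low. Of the 34 in the list 19 were tested, 8 were higher and 1 was lower in d4 PGCLC, with a median log2 ratio of 0.79 against 0.00 in the remaining cells. *Stra8*, the retinoic acid-induced gate to meiosis (chromosome 6, 34920163 to 34939344), had 3 UMIs in 3 of 91 d2 cells and 30 UMIs in 6 of 44 d4 cells. Its level went from 1.02 to 28.4 CPM, a ratio of 27.8 (8.65 to 142), and 1 cell held 40.0% of the d4 UMIs. *Dmrt1*, a sex-determination factor of germ cells, stood at 6.82 and 18.96 CPM, 2.78-fold higher (1.42 to 5.45), with UMIs in 15 of 91 and 14 of 44 cells. *Tex19.1*, a repressor of transposons, stood at 7.50 and 19.9 CPM. The lower gene was *Ddx4*, the helicase VASA, with 17 UMIs and 1 UMI, and it did not pass 2-fold with a pseudocount of 5 CPM. *Sycp3* and *Rec8* of the meiotic chromosome axis did not pass 2-fold, with log2 ratios of 0.38 and -0.40. The E-box CACGTG, counted in any promoter of a gene as for glycolysis, was found for 7 of 18 matched genes of this list (38.9%). It was found for 12.7% of the matched genes tested and for 2 of the 7 matched genes that were higher.

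Of 32 tested imprinted genes, which are expressed from a single parental allele, 13 were lower, 0 were higher and 19 passed neither way in d4 PGCLC, with a median log2 ratio of -0.42. In the remaining EB cells 13 were higher and 0 lower, with a median of 0.70, and 4 genes were in both counts of 13, that is, lower in PGCLC and higher around them. *Peg3*, a zinc-finger protein (chromosome 7, 6703892 to 6730431), stood at 275 CPM (257 to 295) and 44.6 CPM (32.7 to 59.3) in PGCLC, 6.18-fold lower (4.60 to 8.48), and at 404 and 488 CPM in the remaining cells. *Grb10*, an adaptor that restrains growth, was 6.43-fold lower (3.18 to 15.2) at 48.8 and 7.59 CPM. *Cdkn1c*, the CDK inhibitor p57 (chromosome 7, 143458339 to 143461050), went from 181 to 37.9 CPM in PGCLC, 4.78-fold lower (3.47 to 6.77), and from 388 to 2213 CPM in the remaining cells. *Meg3*, a noncoding RNA, went from 291 to 74.9 CPM in PGCLC and from 619 to 1634 CPM in the remaining cells. When k-means clusters replaced the listed barcodes *Grb10* and *Gnas* did not pass 2-fold. *Gnas* was 2.63-fold (2.13 to 3.28) and *Phlda2* 2.20-fold (1.85 to 2.62) lower, with 48% of the d4 UMIs of *Phlda2* in 1 cell.

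Not all imprinted genes were lower. *Igf2*, *Sfmbt2* and *Sgce* had the highest log2 ratios in PGCLC, 0.73, 0.72 and 0.70, none of which reached 2-fold. In the remaining cells *Igf2* went from 344 to 1269 CPM and *Sgce* from 26.7 to 367 CPM, and d4 PGCLC held *Igf2* at 3.66% and *Sgce* at 6.19% of those d4 levels. *Cdkn1c* in d4 PGCLC was at 1.71% of the level in the remaining cells. For comparison, 6 hemoglobin and erythroid genes with at least 50 CPM in the remaining d4 cells were at 1.30% to 3.94% of it in d4 PGCLC. The part of free RNA in these values was not tested.

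**Figure D4:**
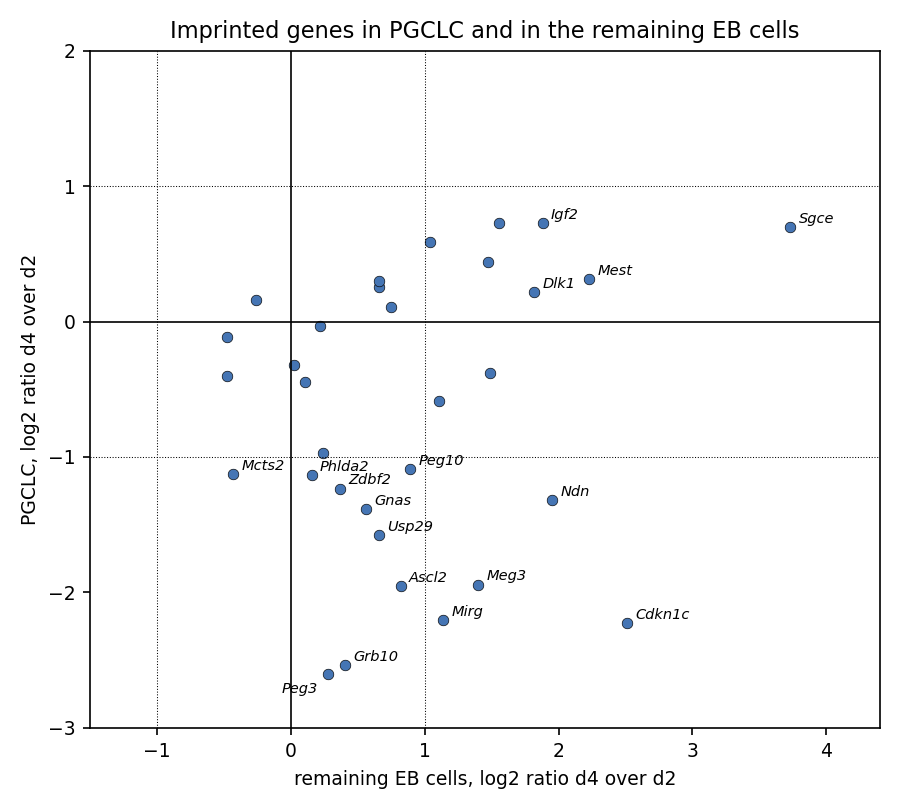
Each point is 1 of 32 tested imprinted genes, with its log2 ratio of d4 over d2 in the remaining EB cells (x axis) and in PGCLC (y axis), and dotted lines mark 2-fold. Points lie in the lower right for *Cdkn1c* (2.51 and -2.23) and *Meg3* (1.40 and -1.94), and 13 genes lie below -1 on the y axis, while 0 lie above 1.

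The X-linked homeobox genes of the *Rhox* cluster and the hemoglobin genes were higher in the remaining cells as well. Of 4 tested *Rhox* genes, 2 were higher in d4 PGCLC. *Rhox6*, which is also a marker of extraembryonic ectoderm, stood at 8.52 and 27.5 CPM in PGCLC and at 18.2 and 364 CPM in the remaining cells, and *Rhox5* at 14.3 and 35.1 CPM and at 6.32 and 138 CPM. The 14 hemoglobin and erythroid genes of the table summed to 3.07 and 32.2 CPM in PGCLC and to 2.13 and 1505 CPM in the remaining cells. The 14 markers of extraembryonic ectoderm summed to 269 and 129 CPM in PGCLC, and the 15 of endothelium to 87.6 and 83.4 CPM. Of these lists, *Hba-x* was the only hemoglobin gene with at least 10 UMIs, and 6 of 14 hemoglobin and erythroid genes in the table had 0 UMIs in d4 PGCLC.

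Genes of DNA and histone methylation were mostly level. Of 18 tested DNA methylation and demethylation genes, 1 was higher and 0 lower. The higher gene was *Tet2*, which oxidizes 5-methylcytosine, at 6.82 and 25.6 CPM, 3.76-fold higher (2.03 to 7.06). *Tet1* stood at 33.1 and 65.4 CPM, a ratio of 1.98 (1.43 to 2.72). *Uhrf1*, the partner of the maintenance methyltransferase, stood at 64.4 and 36.0 CPM, a ratio of 0.559 (0.384 to 0.796). Of 31 genes of H3K9 and H3K27 methylation, 1 was higher, the demethylase *Kdm4c*, and 3 were lower, among them the heterochromatin protein *Cbx3* and the repressor *E2f6*. *Jarid2*, *Epop* and *Mtf2*, which associate with the Polycomb complex PRC2, had log2 ratios of 0.93, 0.84 and 0.71 in PGCLC and of 0.08, 0.48 and 0.04 in the remaining cells.

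No gene of the phase lists of the cell cycle passed 2-fold, and the summed lists leaned slightly to opposite sides. Of 28 genes of S phase, 24 had a ratio below 1, with a median log2 ratio of -0.30 and a summed ratio of 0.836 (0.793 to 0.882). Of 28 genes of G2 and mitosis, 22 had a ratio above 1, with a median of 0.22 and a summed ratio of 1.16 (1.11 to 1.21). Of 21 tested cyclins, CDK inhibitors and p53 targets, 4 were higher (19.05%) and 3 lower (14.3%), beside 5.98% and 12.5% of all genes. *Ccnd2* and *Ccnd1*, the D-type cyclins that carry growth signals, went from 57.3 to 0.948 CPM on 1 UMI, a ratio of 60.4 (10.7 to 2400), and from 53.5 to 8.53 CPM, 6.27-fold lower (3.22 to 13.97). Both were also lower in the remaining cells. *Cdkn1a*, the CDK inhibitor p21, and *Mdm2*, the ligase that degrades p53, were 2.47-fold (1.91 to 3.19) and 2.94-fold (2.17 to 3.97) higher, and both are targets of p53. *Trp53* itself stood at 183 and 207 CPM.

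Of 21 tested receptors and surface proteins, 6 were higher (28.6%) and 3 lower (14.3%), beside 5.98% and 12.5% of all genes. The share of lower genes was thus near that of all genes. *Cd24a*, a surface glycoprotein, was 6.59-fold lower (5.22 to 8.43) at 468 and 71.1 CPM. The tetraspanin *Cd9*, the LIF receptor *Lifr* and the adhesion molecule *Pecam1* were higher, at 52.2 and 134 CPM, 8.18 and 22.8 CPM, and 9.55 and 32.2 CPM. Of 20 tested genes of stress and tissue dissociation, 6 were lower, 2 were higher and 12 passed neither way, while the summed level of the list was 4710 CPM in d2 and 5532 CPM in d4 PGCLC. The early response genes *Fos* and *Jun* were among the lower ones, with *Fos* at 145 and 47.4 CPM and *Jun* at 66.1 and 14.2 CPM, while *Fos* stood at 251 and 312 CPM in the remaining cells. The higher ones were *Ier3* and *Ddit4*. Of 18 tested cytoskeleton and mesenchymal genes, 6 were lower, among them *Lamb1* and *Cdh2*, and 2 were higher, *Spp1* being named by the rule at 23.2 and 69.2 CPM.

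**Figure D5:**
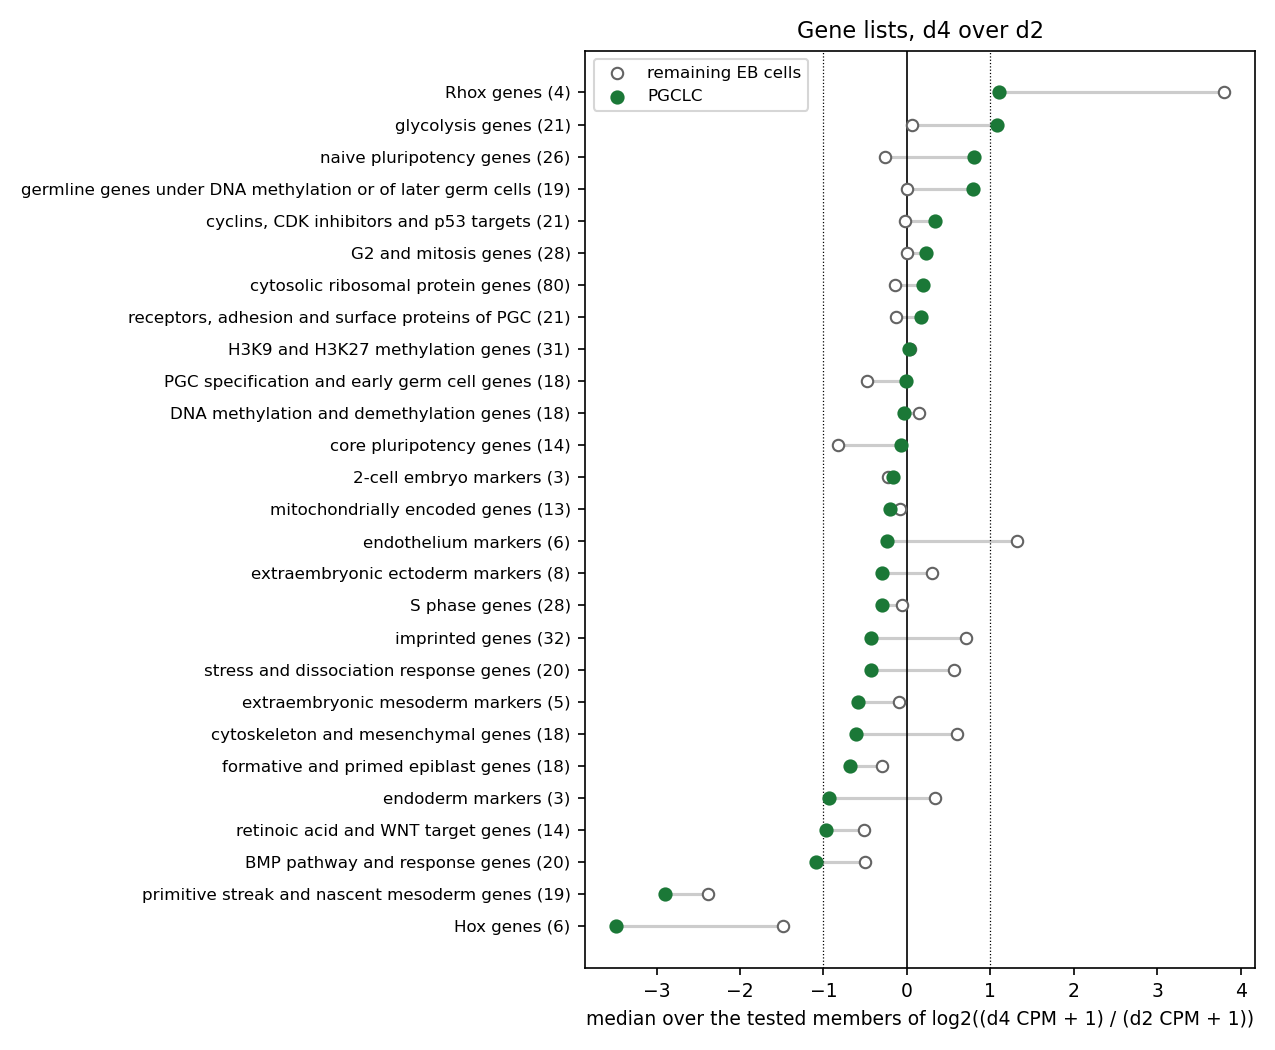
The x axis gives the median over the tested members of a list (number in parentheses) of the log2 ratio of d4 over d2 in PGCLC (filled) and in the remaining EB cells (open), for lists with at least 3 tested members, and dotted lines mark 2-fold. Streak and *Hox* genes were at -2.90 and -3.49 in PGCLC, and glycolysis genes at 1.08 in PGCLC and 0.06 in the remaining cells. With genes at 0 UMIs set to their limit, the streak and *Hox* medians were -1.94 and -1.85.

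The change in PGCLC was set against the change in the remaining cells of the same libraries. Of 10133 genes with at least 10 UMIs in both, the log2 ratio of PGCLC was greater by at least 1 for 615 (6.07%) and smaller by at least 1 for 1713 (16.9%). In the remaining cells 10.6% of 13372 genes were higher and 4.17% lower. Of the 1282 genes lower in d4 PGCLC, 221 were lower in the remaining cells and 79 were higher there, and of the 613 higher genes, 107 were higher and 22 lower there. The largest positive differences included *Pou5f1*, the metallothionein *Mt2*, *Dppa5a*, *Ifitm1* and *Apela*, which were lower in the remaining d4 cells and did not pass 2-fold in PGCLC. *Dppa5a* stood at 2666 and 5025 CPM in PGCLC and at 417 and 71.4 CPM in the remaining cells, and *Apela* at 31.4 and 30.3 CPM and at 70.3 and 4.56 CPM.

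Of the 389 PGCLC genes of the study, which were chosen on these cells of both days and so give no independent evidence, 86 were higher (22.1%) and 26 lower (6.68%) in d4 PGCLC, with a median log2 ratio of 0.42. The largest rises among them were *Ooep*, *Pfkp*, *Calcoco2*, *AU018091*, *Tdgf1*, *Tdrp*, *Upp1* and *Mobp*. *Upp1*, a uridine phosphorylase, stood at 29.3 and 134 CPM and *Mobp* at 12.6 and 58.8 CPM. The largest falls were *T*, *Parp9*, *Grik3*, *Tdrd5*, *Igfbpl1*, *Usp51*, *Fam19a5* and *Dtx3l*. *Tdrd5*, a Tudor protein of the germline, stood at 19.4 CPM and had 2 UMIs in d4 PGCLC. In the remaining cells 10 of the 389 genes were higher and 58 lower. The genes lower in the listed cells thus included *T*, a marker of the mesodermal phase, beside genes of the germline.

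To compare detection at equal depth, all cells were thinned to the same 14660 UMIs, and this dropped 5 d4 PGCLC and 0 d2 PGCLC, 12 remaining d2 and 22 remaining d4 cells. Of 13871 genes seen in these cells, 234 had a UMI in at least 20 percentage points more of the d4 PGCLC (1.69%) and 505 in at least 20 points fewer (3.64%). The largest gains were *Fabp3*, *Hk2*, *Slc16a3*, *Ooep*, *Bnip3* and *Igfbp2*. *Fabp3* was found in 19.8% of thinned d2 and 79.5% of thinned d4 PGCLC (36.3% and 90.9% unthinned), and in 18.0% and 15.9% of the thinned remaining cells. *Hk2* was found in 19.8% and 76.9% (34.1% and 79.5% unthinned), and in 26.04% and 33.4% of the thinned remaining cells. The largest losses were *Psmb8*, *B2m*, *Fgf8*, *Rspo3*, *Cdx2* and *T*. *Psmb8* was found in 71.4% and 2.56% (76.9% and 2.27% unthinned), and in 79.0% and 0.993% of the thinned remaining cells. In these cases the share in d4 PGCLC and the level in CPM, which come from the same UMIs, moved in the same direction.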

How the data were processed

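The deposited table of E14Tg2a holds UMI counts per gene and cell. Per the labels and the study's methods, the authors made the counts with Cell Ranger on mm10 and aggregated 8 libraries to equal mapped reads per cell, with no scaling afterwards. The gene annotation is not given in the sources used here. The table held 27998 genes, of which 27645 received a symbol. A separate table of R1 cells was not used here, and 0 columns of the table used were left unused. PGCLC were the listed barcodes, with the library read from the barcode suffix.

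Computed here were CPM from summed UMIs, log2 ratios with a pseudocount of 1 CPM for genes with at least 10 UMIs, and exact 95% intervals. Depth per group, given in the text, limits the precision: 3 UMIs equal 1.02 CPM in d2 and 2.84 CPM in d4 PGCLC. With 1 library per day there are no replicates and no test was run. Thinning drew UMIs without replacement to the 10th percentile of the d4 PGCLC. Doublets called with Scrublet in scanpy 1.11.5 (6 in each EB library, 3 of them listed d2 cells and 0 listed d4 cells) were kept. k-means clusters (3 and 4) used 2000 genes and 20 components. Python 3.11.15, numpy 2.4.6, scipy 1.17.1, pandas 2.3.3, scikit-learn 1.9.0 and matplotlib 3.10.9 were used, and the computation was tested on simulated data. Coordinates are those of GENCODE vM21 on GRCm38.

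The genes named are the 4 markers, per list up to 4 members with most UMIs and up to 3 rises and 3 falls with at least 30 UMIs, the 12 largest rises and falls over genes with at least 50 UMIs, the 8 largest of the difference from the remaining cells and of the PGCLC genes, and the 6 largest in detection. *Prdm14*, *Nanog*, *Esrrb* and *Ddx4* were added after their values were seen. The members and lists were chosen with earlier results of these data known. Values of near-identical copies, as in the *Rhox* family, and of overlapping genes such as *Parp9* and *Dtx3l* are uncertain, since reads may be split or shared between them.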

Additional observations from a re-analysis of the deposited data

Results flagged for a closer look

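In 7 of the named genes with at least 50 UMIs, PGCLC and the remaining cells of the same EB moved at least 2-fold in opposite directions between d2 and d4. Each part of the EB was 1 group of cells per library, so these differences were not tested. All but *Meg3* were among the genes named for the largest difference between the 2 ratios, so opposite directions were favored by that choice. Over all genes, 79 of the 1282 lower in d4 PGCLC were at least 2-fold higher in the remaining cells. Of the 613 higher in d4 PGCLC, 22 were at least 2-fold lower there. Log2 ratios of d4 over d2 were -4.60 in PGCLC and 1.81 in the remaining cells for *Sox3*, a SOX factor of the epiblast, -4.47 and 1.97 for *Pkdcc*, a secreted kinase, and -3.12 and 1.32 for *Hmcn1*, an extracellular matrix protein. They were -2.27 and 1.83 for *Gm1673*, -2.23 and 2.51 for the imprinted *Cdkn1c*, and -1.94 and 1.40 for the imprinted *Meg3*. *Chmp4c*, of the ESCRT machinery, went the other way, with 1.14 in PGCLC and -1.90 in the remaining cells. *Sox3* and *Pkdcc* had 0 UMIs in d4 PGCLC, and with the limit of 3 UMIs their log2 ratios in PGCLC were -3.03 and -2.89. The ratio of *Hmcn1* rests on 2 UMIs in d4 PGCLC.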

How the results depend on the processing

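No paired analysis was possible because each day was 1 library. The counts depended on the threshold and on how low genes were treated. In place of 613 higher, 1282 lower and 2328 genes past 2-fold in the difference from the remaining cells, a 1.5-fold threshold gave 1436, 2618 and 4532, a 3-fold threshold 207, 559 and 996, a pseudocount of 5 CPM 307, 538 and 1248, no filter on low counts 1136, 1974 and 3939, and a filter of at least 50 UMIs 187, 487 and 866. The 739 genes that differed in detection became 1717 with cells at their deposited depth and 176 at 30 percentage points. The other 27 values of these counts stayed within 1.5 times. Of 2421 values of named genes under alternatives, 1 changed sign: the log2 ratio of *Klf1*, on 5 and 0 UMIs, became 2.05 when k-means clusters replaced the listed barcodes, from -1.44. The medians of the streak (-4.33 to -1.44), naive (0.70 to 1.02, the lowest without *Dppa5a*, an alternative chosen after seeing the data), glycolysis (0.91 to 1.27), BMP (-1.22 to -0.75), imprinted (-0.54 to -0.23) and germline (0.07 to 0.99) lists kept their sign, while that of the extraembryonic mesoderm markers ran from -3.47 to 1.81. With a pseudocount of 5 CPM *Prdm1*, *Dppa4*, *Cbx3*, *E2f6*, *Tex19.1*, *Chmp4c*, *Ddx4* and *Esrrb* no longer passed 2-fold, *Nanog* and *Chmp4c* did not with cells thinned to a common depth, and *Cdh2* and *Esrrb* did not with k-means clusters.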
